A study of Rattus norvegicus with 4 samples.

Results

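The sodium-potassium pump genes described here are the beta subunit genes Atp1b1, Atp1b2, Atp1b3 and Atp1b4 and the pump regulator Fxyd1. They are 5 of the 14217 genes named on the array, and every probe set whose platform annotation gave exactly 1 of their symbols was taken, 7 of 31042. Atp1b1 and Atp1b2 had 2 probe sets each and the other genes 1 each. Each gene is represented by its brighter probe set, and the values of the second are given beside it. The catalytic alpha subunits of striated muscle were not analysed here.

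The pump moves sodium out of the cell and potassium in against their gradients, using ATP, and so keeps the muscle fibre membrane excitable. It is made of a catalytic alpha subunit and a beta subunit, a glycoprotein that is needed for the alpha subunit to fold and reach the plasma membrane. A small FXYD protein can bind the pair and tune its activity. In skeletal muscle the amount of pump follows use of the muscle, and loss of the nerve removes that use.

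The RNA came from the soleus, a slow postural muscle of the hind leg, of male Wistar rats that were 10 weeks old at the start and 14 weeks old by the sample labels. There were 4 pools, each holding RNA of 8 rats on 1 array: genistein diet with the sciatic nerve severed, genistein diet with sham surgery, control diet with the nerve severed, and control diet with sham surgery. Genistein is an isoflavone of soy and a ligand of oestrogen receptors, and was fed at 0.05% of the diet (0.5 g per kg) for 24 days. The nerve of the left leg was cut on day 14 and the muscles were taken 10 days later, so the denervated and sham pools of a diet hold opposite legs of the same rats. Both diets were of the AIN-93G type, and the labels name corn oil in place of soybean oil for the control diet. With 1 array per group, no value has a replicate error and no test was run. In a pooled whole muscle, fewer cells of a type and less RNA per cell cannot be told apart.

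The groups follow the sample titles, since the treatment field disagrees with the title, the source name and the description in 2 samples. The receptor subunit gene Chrng, which muscle expresses after nerve loss, read 1046 units in genistein denervated and 28.0 units in genistein sham muscle, and 881 against 26.0 units on the control diet, which goes with the titles. The log2 ratios of the other genes listed for this check were 3.35 and 3.47 on the genistein and control diets for Chrna1, 1.94 and 1.80 for Chrnd, 2.09 and 1.82 for Myog and 2.91 and 2.52 for Ncam1, whose second brightest probe set gave 0.00 on the control diet. All 6 skeletal muscle fibre markers (Acta1, Ckm, Mb, Ttn, Des and Tnnt1) were above the floor on the array of each pool. That floor is 78.9 units, the 40th percentile of all signals, and dimmer signals were raised to it before ratios were taken. Between 58.5% and 60.8% of probe sets were above it on each array. The 3′ to 5′ actin signal ratio, which reflects how intact the RNA was, read 2.76 and 2.32 in genistein denervated and sham muscle and 3.79 and 2.08 in control denervated and sham muscle. The same ratio for Gapdh went the other way, at 1.13 and 1.20 on genistein and 1.14 and 1.24 on the control diet. The hybridisation spike-ins, which are added in equal amount to each sample, read lower in denervated than in sham arrays by median log2 ratios of -0.58 on genistein and -0.37 on the control diet. The part of these technical differences in the results was not tested.

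The first question is how the pump genes differed between denervated and sham muscle within each diet. Atp1b1, Atp1b4 and Fxyd1 were at least 2-fold lower in denervated muscle on both diets, Atp1b4 by far the most of the 5. Atp1b2 was 1.31-fold higher on genistein and 2.38-fold higher on the control diet. Atp1b3 was near its sham signal on the control diet and 1.48-fold higher on genistein. On genistein 3 of 5 genes were at least 2-fold lower and 0 higher, where 6.57% of 10810 measured genes were lower and 4.96% higher. On the control diet 3 of 5 were lower and 1 higher, where 7.63% of 10755 genes were lower and 5.04% higher. The median log2 ratio of the 5 genes was -1.08 on genistein and -1.04 on the control diet, beside medians of 0.02 and -0.0029 over all measured genes.

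**Figure D1:**
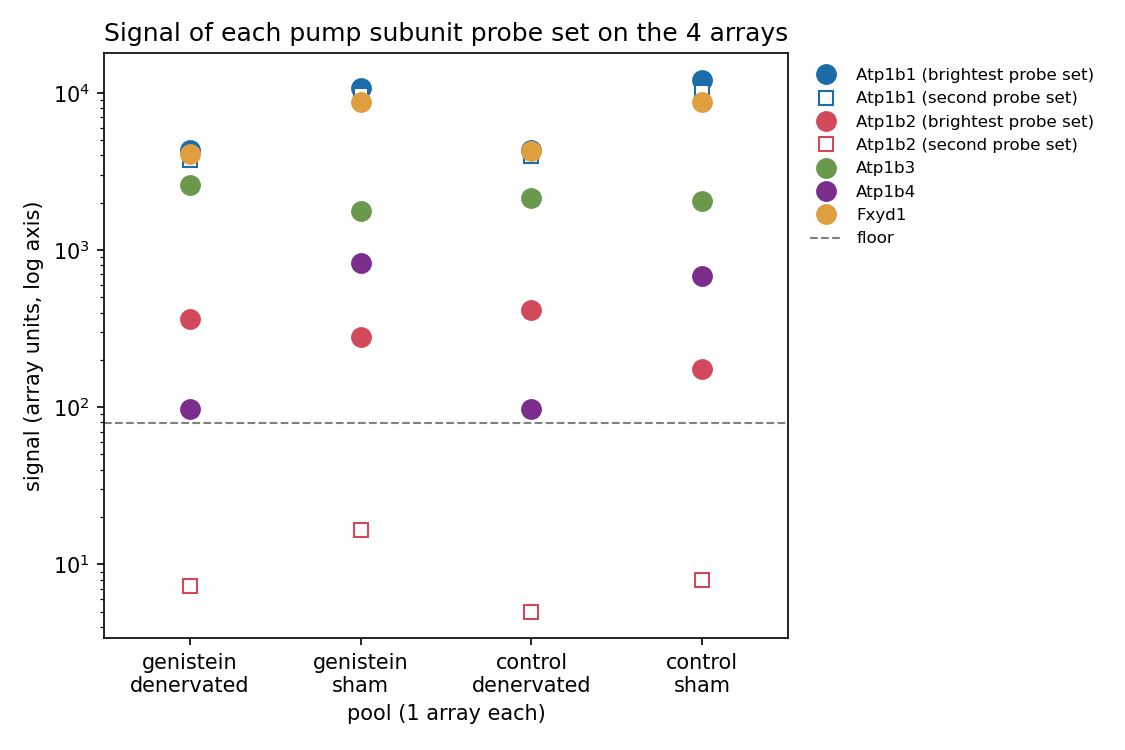
Signal of each of the 7 probe sets (array units, log axis) in the 4 pools, 1 array each, with filled circles for the probe set that represents a gene, open squares for the second probe set and a dashed line at the floor of 78.9 units. The circles of Atp1b1, Atp1b4 and Fxyd1 are lower in each denervated pool than in the sham pool of its diet, and the second probe set of Atp1b2 lies below the floor on all 4 arrays, between 5.0 and 16.6 units.

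Atp1b1 encodes the beta-1 subunit, which in rat muscle is the main beta form of slow oxidative fibres. Its brighter probe set read 4336 units in genistein denervated muscle, against 10767 units in genistein sham muscle. On the control diet it read 4344 units in denervated and 12126 units in sham muscle. The denervated pools differed by 8.3 units from each other, while the denervated pool lay 6431 units below its sham pool on genistein and 7782 units below it on the control diet. The log2 ratio of denervated over sham muscle was -1.31 on genistein (2.48-fold lower) and -1.48 on the control diet (2.79-fold lower). Scaling on the spike-ins brought the genistein ratio inside 2-fold (-0.75). The second probe set read 3749 and 9633 units in genistein denervated and sham muscle, and 3971 and 10046 units in control denervated and sham muscle. Its log2 ratios were -1.36 and -1.34 on the genistein and control diets, so the 2 probe sets differed by less than the scatter seen elsewhere on these arrays. That scatter, the SD of log2 ratios among probe sets of the same gene over 2310 genes, was 0.36 for denervation on genistein and 0.35 on the control diet. It leaves out scatter between pools, since the probe sets of a gene share the arrays.

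Fxyd1 encodes phospholemman, which binds the pump in heart and skeletal muscle and inhibits it until it is phosphorylated. It read 4102 units in genistein denervated and 8683 units in genistein sham muscle, and 4248 units in control denervated and 8720 units in control sham muscle. The signals of the denervated pools lay close to each other, as did those of the sham pools. The log2 ratio was -1.08 on genistein and -1.04 on the control diet (2.12-fold and 2.05-fold lower). These ratios lie just past 2-fold, and they came inside it under quantile normalization (-0.92 and -0.86), under scaling on the spike-ins (-0.52 and -0.67) and, on the control diet, under median scaling (-0.95). Of the members with more than 1 log2 unit between their highest and lowest pool, Fxyd1 and Atp1b1 had the most similar patterns, at a distance of 0.36 log2 units over the 4 arrays. Many genes outside the members were closer, as Fxyd1 ranked 258 among the genes nearest to Atp1b1.

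Atp1b4 had the largest ratio of the 5 genes on either diet. The gene belongs to the beta subunit family by sequence, but in placental mammals its protein is found in the inner nuclear membrane of muscle cells rather than with the pump at the cell surface, and it has been described as a co-regulator of transcription. Its signal was 97.8 units in genistein denervated muscle, against 825 units in genistein sham muscle. On the control diet it was 97.9 units in denervated and 684 units in sham muscle. Both denervated signals were close to the floor, and both sham signals were far above it. The log2 ratio was -3.08 on genistein and -2.81 on the control diet (8.44-fold and 6.99-fold lower). From the lowest ratio upward it ranked 31 of 10810 measured genes on genistein and 41 of 10755 on the control diet. Atp1b1 ranked 368 and 285 by the same count, and Fxyd1 598 and 758.

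Atp1b2 encodes the beta-2 subunit, first known as an adhesion molecule on glia and, in rat muscle, the beta form of fast glycolytic fibres. It read 365 units in genistein denervated and 280 units in genistein sham muscle, a log2 ratio of 0.38. On the control diet it read 417 units in denervated and 175 units in sham muscle, a log2 ratio of 1.25. The control sham pool had the lowest signal and the control denervated pool the highest, with both genistein pools between them. The second probe set of Atp1b2 gave no usable ratio, with 7.3 and 16.6 units in genistein denervated and sham muscle and 5.0 and 8.0 units on the control diet, all below the floor. The control diet ratio therefore rests on 1 probe set of low signal, and it was 0.94 with the floor at the 60th percentile and 0.63 with the mean of both probe sets.

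Atp1b3 encodes the beta-3 subunit, which many tissues express. Its signal was 2603 units in genistein denervated and 1758 units in genistein sham muscle, a log2 ratio of 0.57. On the control diet it was 2135 units in denervated and 2050 units in sham muscle, a log2 ratio of 0.06, which is smaller than the scatter among probe sets. The genistein denervated pool was highest and the genistein sham pool lowest. Scaling on the spike-ins, which moved the median of all measured genes to 0.56 on genistein and 0.35 on the control diet, gave Atp1b3 ratios of 1.13 and 0.43.

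**Figure D2:**
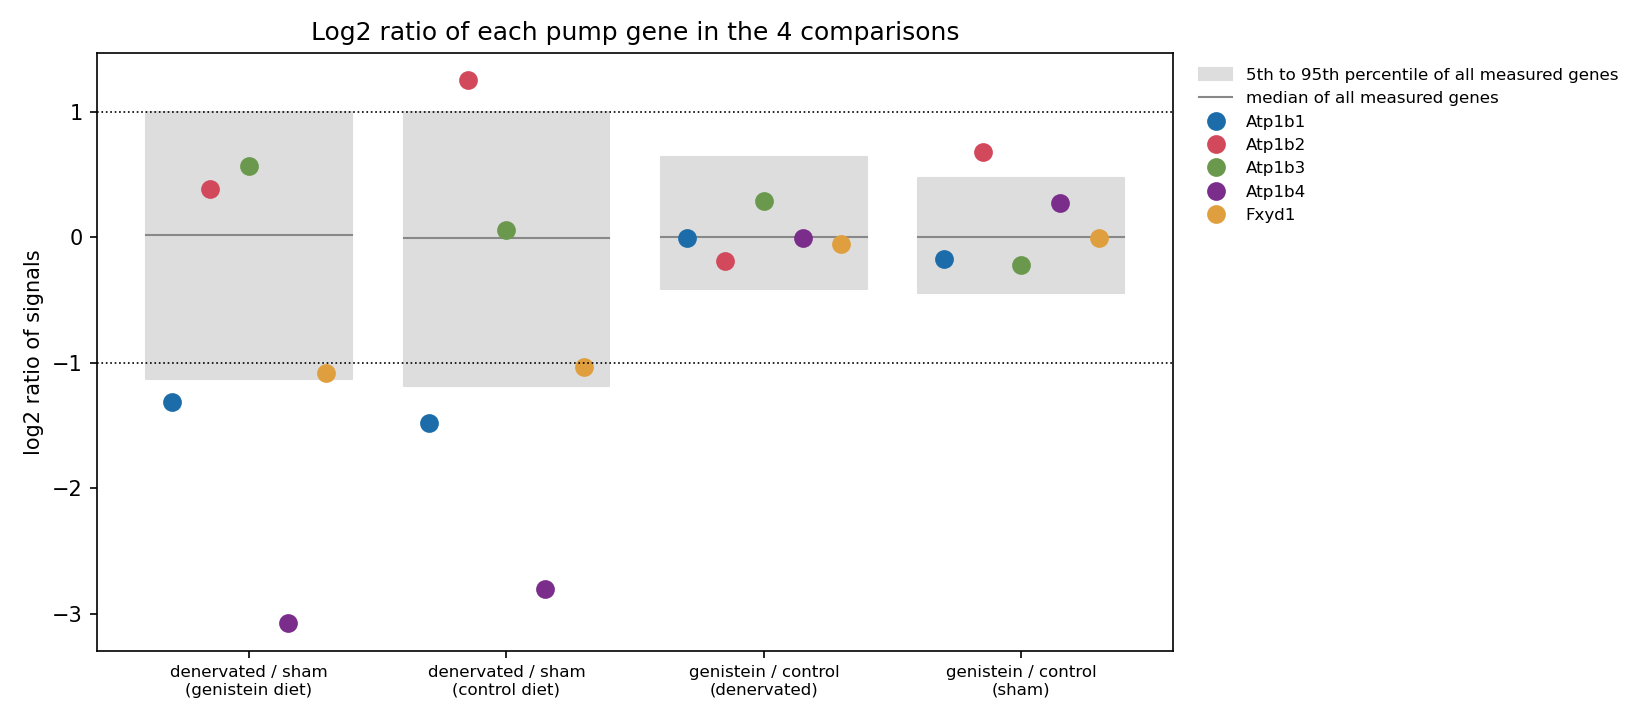
Log2 ratio of signals of each gene in 4 comparisons, 1 coloured point per gene, over a grey band from the 5th to the 95th percentile of all measured genes, a grey line at their median and dotted lines at 2-fold. Atp1b4 (-3.08 and -2.81) and Atp1b1 (-1.31 and -1.48) lie below the band in both denervation comparisons, and Atp1b2 lies above it in the control diet denervation comparison (1.25) and in the sham diet comparison (0.68).

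Part of the sequence before the start is shown for Atp1b4 and Fxyd1, which were lower after denervation, and for Atp1b2, which was higher on the control diet. Genes that went in opposite directions are thus set side by side. The sequences are from RefSeq on the rat build GRCr8, on the strand of the gene, 5′ to 3′, and 4 of the 5 genes, all but Atp1b1, had an entry. Each is cut to the bases that lie outside the annotated gene, 196 for Atp1b4, 185 for Fxyd1 and 250 for Atp1b2. For Atp1b4 and Fxyd1 the bases next to the start used for motif positions are therefore not printed, while for Atp1b2 they are. Capitals mark every match on either strand to 4 short motifs searched, CAGCTG (a form of the E-box that myogenic factors can bind), GGGCGG (the GC box), TATAAA (the TATA box) and AGGTCA (a short element that oestrogen and other nuclear receptors bind). The Atp1b4 bases are chrX:121952727-121952922 on the plus strand, those of Fxyd1 are chr1:95418646-95418830 on the minus strand, and those of Atp1b2 are chr10:54823709-54823958 on the minus strand.
Atp1b4: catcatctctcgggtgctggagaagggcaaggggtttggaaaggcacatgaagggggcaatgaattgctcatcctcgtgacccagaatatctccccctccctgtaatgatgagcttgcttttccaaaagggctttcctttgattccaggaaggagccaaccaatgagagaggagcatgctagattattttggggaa
Fxyd1: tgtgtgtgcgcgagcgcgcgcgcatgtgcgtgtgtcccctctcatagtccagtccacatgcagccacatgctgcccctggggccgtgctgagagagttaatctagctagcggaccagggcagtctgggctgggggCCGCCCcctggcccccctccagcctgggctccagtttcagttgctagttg
Atp1b2: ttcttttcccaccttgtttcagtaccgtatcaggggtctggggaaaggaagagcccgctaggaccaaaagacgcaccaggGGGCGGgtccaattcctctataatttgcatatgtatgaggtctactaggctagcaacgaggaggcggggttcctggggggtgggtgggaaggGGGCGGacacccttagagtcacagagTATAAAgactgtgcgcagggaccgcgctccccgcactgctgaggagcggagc

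In the full window of 300 bases, from 250 before to 50 after the start, Atp1b4 held 0 matches to any of these motifs. Fxyd1 held 1 GGGCGG on the other strand, seen above as its complement, and 1 CAGCTG that lies after the start and is not printed. Atp1b2 held 2 GGGCGG and 1 TATAAA, whose first base lies at position -52 from the start. Atp1b3, whose sequence is not printed, held 6 GGGCGG. Among 33469 windows of the same length, 33.1% held GGGCGG, 15.1% CAGCTG, 14.2% TATAAA and 16.2% AGGTCA, on either strand. A match describes these letters and is not evidence of binding.

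The next question is what the diet did to the pump genes. None of the 5 genes differed by 2-fold between diets in denervated or in sham muscle, where 1.15% of 10479 and 0.61% of 10819 measured genes did. In denervated muscle the genistein pool stood at 99.8% of the control signal for Atp1b1, 99.9% for Atp1b4 and 96.6% for Fxyd1. The diet log2 ratio there was 0.29 for Atp1b3 and -0.19 for Atp1b2, beside a scatter among probe sets of 0.25. As deposited, the genes that were lower after denervation thus read nearly alike in both denervated pools, though both Atp1b4 signals lie close to the floor. The Atp1b1 diet ratio there was -0.14 under median scaling and 0.19 under spike-in scaling.

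In sham muscle the genistein pool had 1.60-fold the control signal of Atp1b2 (280 against 175 units, log2 ratio 0.68), beside a scatter among probe sets of 0.26. From the highest ratio downward Atp1b2 ranked 192 of 10819 measured genes there. The other ratios were smaller, at 0.27 for Atp1b4, -0.17 for Atp1b1, -0.22 for Atp1b3 and -0.0062 for Fxyd1. The second Atp1b1 probe set gave -0.06 in sham and -0.08 in denervated muscle.

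The denervation log2 ratio on genistein minus that on the control diet was -0.87 for Atp1b2, 0.51 for Atp1b3, -0.27 for Atp1b4, 0.17 for Atp1b1 and -0.04 for Fxyd1. None reached 1 in size, which 2.59% of 11151 genes did. For Atp1b2 most of the difference comes from the sham pools, whose signals differed by 104.8 units, against 51.8 units between the denervated pools. These differences between diets were not tested, as each rests on 4 arrays with 1 per group.

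**Figure D3:**
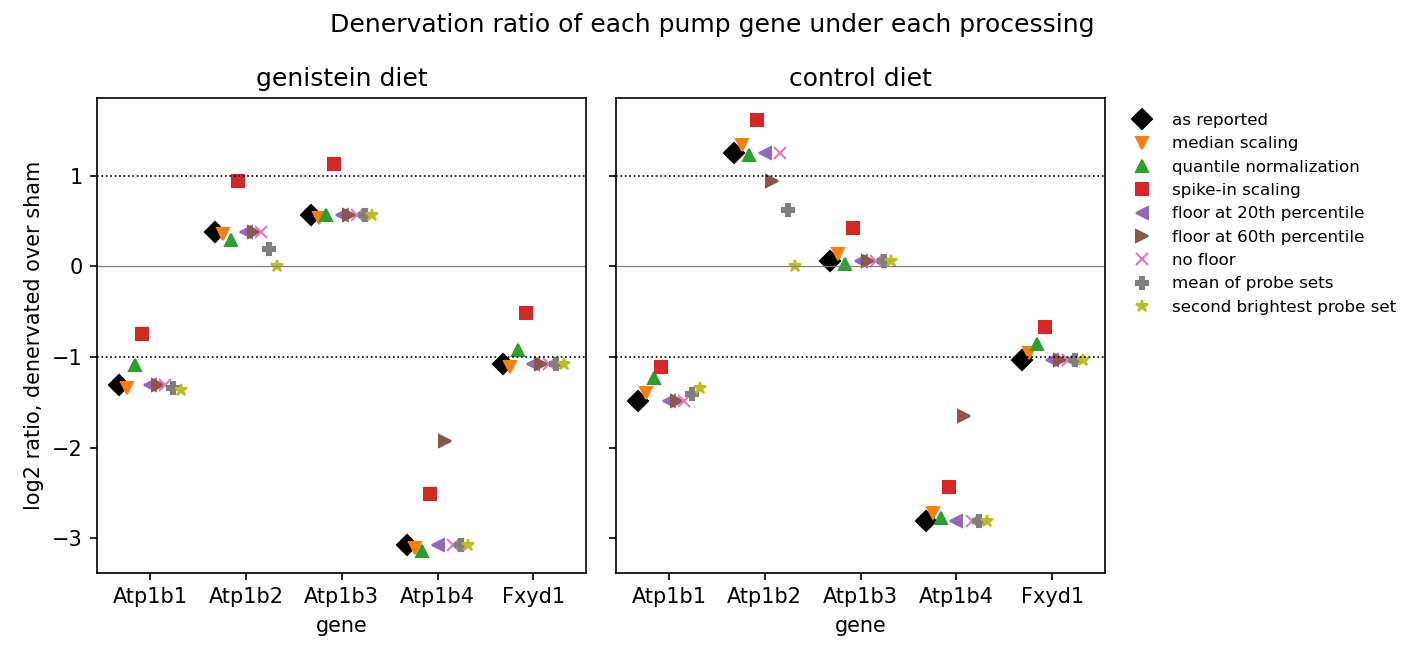
Log2 ratio of denervated over sham signal for each gene on the genistein diet (left) and the control diet (right), with 1 marker per processing, the black diamond being the values as reported, and dotted lines at 2-fold. Spike-in scaling lifts every gene in both panels, so that Fxyd1 comes to -0.52 on genistein and -0.67 on the control diet, and a floor at the 60th percentile brings Atp1b4 to -1.92 and -1.65.

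Genes with the pattern most like each member over the 4 arrays were found among the 9361 other genes that passed the floor in all 4 pools, by the Euclidean distance between log2 signals centred on their mean. Atp1b3 was left out because its pools span less than 1 log2 unit. Nearest to Atp1b1 were Tln2, which encodes talin-2 (distance 0.06), Adprhl1 (0.07) and Pdlim5, a PDZ and LIM domain protein (0.08). Nearest to Fxyd1 were Flnc, the muscle filamin (0.02), Timm8a1, a mitochondrial import protein (0.03), and Idh2, the mitochondrial isocitrate dehydrogenase (0.03). Nearest to Atp1b4 were Pank1, a pantothenate kinase of coenzyme A synthesis (0.10), Dffa (0.19) and Lmcd1, a LIM domain protein (0.21). Pank1 read 257 and 2329 units in genistein denervated and sham muscle and 262 and 1749 units in control denervated and sham muscle. Nearest to Atp1b2 were Cited4, a transcription co-regulator (0.04), Pik3ip1, an inhibitor of phosphoinositide 3-kinase (0.09), and Tdp1 (0.10). Cited4 read 465 and 352 units in genistein denervated and sham muscle and 540 and 218 units on the control diet, so it too was lowest in control sham muscle. With 4 points and so many genes, close neighbours are easily found, and the distances are a description.

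Fibre type genes are given beside the beta subunits because beta-1 and beta-2 differ between fibre types. Of 8 slow fibre genes, 4 were at least 2-fold lower and 0 higher in denervated muscle on each diet, where 6.57% and 7.63% of all measured genes were lower on the genistein and control diets. The 4 were the myosin light chains Myl2 (log2 ratios -2.63 and -2.05) and Myl3 (-1.35 and -1.11), the slow troponin I gene Tnni1 (-1.03 and -1.05) and the calsequestrin gene Casq2 (-3.08 and -3.58). The list medians were -0.99 on genistein and -0.93 on the control diet. The count moved both ways with the processing, to 2 on each diet under quantile normalization (medians -0.42 and -0.40) and under spike-in scaling, and to 6 on each with the second brightest probe set.

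Of 10 fast fibre genes, 3 passed 2-fold upward on genistein and 4 on the control diet, and 1, Myh2, was lower on both (-1.22 and -1.58), though inside 2-fold on genistein under quantile and spike-in scaling (-0.66 under each). Higher on both diets were the fast myosin gene Myh4 (6.30 and 7.84), the calcium buffer Pvalb (5.77 and 4.93) and the alpha-actinin of fast fibres Actn3 (2.92 and 5.12). The medians of the fast fibre genes were -0.14 and -0.04. They were above 0 with quantile-normalized signals (0.27 and 0.41) and when arrays were scaled on the spike-ins (0.42 and 0.33). Between the diets in sham muscle, 2 of the 10 were past 2-fold higher with genistein, Actn3 (1.25) and Mybpc2 (1.88), beside 0.324% of all measured genes. The list median there was 0.04, with Myh4 at 0.81 (its control sham signal, 82.0 units, lies close to the floor) and Pvalb at -0.54. The second probe set of Mybpc2 gave 0.90. The denervation log2 ratio on genistein minus that on the control diet was -1 or lower for 3 of the 10, beside 2.59% of all genes past 1 in either direction. They were Myh4 (-1.54), Actn3 (-2.20) and Mybpc2 (-2.18), while Pvalb was at 0.84. The part of fibre type in the pump gene values was not tested.

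Markers of other cells differed between the pools too. Atp1b2 is also a gene of glia, and of 12 listed Schwann cell and nerve markers 10 were on the array and 7 above the floor in some pool, with Sox10, Ngfr and Erbb3 below it in all 4. Their summed signal was 5105 and 3916 units in genistein denervated and sham muscle, and 3863 and 3855 units in control denervated and sham muscle. Most of each sum is Pmp22, a myelin gene that other cells also express, with 3825 and 3046 units on genistein and 2943 and 2895 units on the control diet. On the control diet the others went both ways, with log2 ratios of 0.48 for Mbp, -0.24 for S100b, -0.38 for Egr2 and -0.75 for Prx. On genistein these genes were all above 0, at 1.09 for Mbp, 0.57 for S100b, 0.35 for Egr2 and 0.17 for Prx. The probe sets of Mbp ran from 0.00 to 1.64 there. The list medians were 0.34 on genistein and -0.11 on the control diet.

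Connective tissue markers (8 of 8 measured) summed to 42076 and 58471 units in genistein denervated and sham muscle and to 24863 and 57791 units on the control diet. On the control diet 6 of 8 were at least 2-fold lower, beside 7.63% of all measured genes, with a median of -1.35. On genistein 2 of 8 were, beside 6.57%, with a median of -0.61. Under spike-in scaling 3 were lower on the control diet (median -0.98) and 1 on genistein (median -0.05). The collagen gene Col1a1 (log2 ratios -1.94 and -2.40 on the genistein and control diets) and Postn (-1.33 and -2.04, or -0.77 on genistein under spike-in scaling) were past 2-fold lower on both diets. Endothelial markers (7 of 8 on the array) summed to 2713 and 3751 units on genistein and to 1795 and 3979 units on the control diet. Of the 7, 5 were at least 2-fold lower on the control diet and 0 on genistein, beside 7.63% and 6.57% of all measured genes. Their median on the control diet was -1.08, and under spike-in scaling -0.71 with 1 gene lower. The median on genistein, -0.41, became 0.16 under spike-in scaling. Smooth muscle markers (3 of 4 above the floor, Cnn1 below it on all arrays) summed to 1109 and 1884 units on genistein and to 753 and 1745 units on the control diet. Of the 3, 1 was at least 2-fold lower on genistein and 2 on the control diet, beside 6.57% and 7.63% of all measured genes. Acta2 was lower on both (-1.45 and -1.61, or -0.89 on genistein under spike-in scaling). Tagln was at -0.98 and -1.96, and Myh11 at 0.28 and -0.06.

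In denervated muscle the macrophage and adipocyte lists held genes past 2-fold between the diets in the signals as deposited. The other marker lists held 0. Median log2 ratios of genistein over control diet there were still above 0 for connective tissue (0.73), endothelial (0.70), Schwann cell and nerve (0.59) and smooth muscle markers (0.56). For skeletal muscle fibre markers the median was -0.28. Macrophage and leukocyte markers (8 of 8 above the floor in some pool) summed to 10357 and 10014 units in genistein denervated and sham muscle and to 6572 and 9810 units on the control diet. In denervated muscle 3 of the 7 measured were past 2-fold higher with genistein, beside 1.02% of all measured genes, and the median was 0.80. They were the leukocyte gene Ptprc (1.30, with its second probe set at 0.33), Cd14 (1.08, or 0.95 under median scaling) and Cd163 (1.31, or 0.39 with the floor at the 60th percentile). Adipocyte markers (5 of 6 above the floor, Lep below it on all arrays) summed to 6401 and 6802 units in genistein denervated and sham muscle and to 3949 and 7326 units on the control diet. Most of each sum is Fabp4, with 3843 and 5706 units on genistein and 2733 and 6009 units on the control diet. Its denervation log2 ratios were -0.57 and -1.14, while on the control diet Adipoq was at 0.05, Plin1 at -0.18 and Cfd at -0.17. On genistein 3 of 5 adipocyte markers were past 2-fold higher in denervated muscle, beside 4.96% of all measured genes. The same number were past 2-fold higher with genistein in denervated muscle, with a median of 1.06 in both comparisons. The genes past 2-fold between the diets were the lipid droplet genes Plin1 (1.33) and Cidec (1.06) and the adipsin gene Cfd (1.08). With the floor at the 60th percentile Plin1 came to 0.25 and Cidec to 0.00, and Cfd was 0.95 under median scaling.

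The 6 skeletal muscle fibre markers had median log2 ratios of -0.56 on genistein and -0.51 on the control diet, smaller in size than the ratios of Atp1b1, Atp1b4 and Fxyd1. Quantile normalization brought those medians to -0.01 and 0.02. The part of cell composition in the values of the pump genes was not tested.

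A list of other FXYD proteins and alpha subunits was read beside Fxyd1. Of 10 listed genes 7 were on the array, and Atp1a4, the alpha subunit of testis, and Fxyd4 were below the floor in all 4 pools. None of the 5 measured genes was at least 2-fold lower on genistein, and 3 of 4 were on the control diet, where 7.63% of all measured genes were. These genes are dim, and with the floor at the 60th percentile 0 were lower on the control diet. Under spike-in scaling 2 were past 2-fold higher on genistein and 2 lower on the control diet. Fxyd5, or dysadherin, a FXYD protein of epithelia and other non-muscle cells, read 220 units in genistein denervated and 257 units in genistein sham muscle, and 96.6 units in control denervated and 283 units in control sham muscle. Its log2 ratio was -0.23 on genistein (0.33 under spike-in scaling) and -1.55 on the control diet, and between the diets in denervated muscle it was 1.18, past 2-fold higher with genistein. With the floor at the 60th percentile the control diet ratio was -0.38 and the ratio between diets 0.01, since the control denervated signal lies close to the floor used. The denervation ratios on the genistein and control diets were -0.89 and -1.52 for Fxyd7, -0.59 and -1.09 for Fxyd2 and 0.45 and 0.15 for Fxyd6. The highest signal of any gene of this list was 390.0 units.

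Other genes move sodium, potassium and chloride across the fibre membrane. Of 16 measured transporter and channel genes, 2 were past 2-fold higher and 1 lower on genistein, and 2 higher and 2 lower on the control diet, with medians of -0.17 (0.40 under spike-in scaling) and -0.47. The shares of all measured genes were 4.96% higher and 6.57% lower on genistein and 5.04% higher and 7.63% lower on the control diet. Each count of this list rests on 1 or 2 genes, so the counts are not read as a result about it. Slc12a2, the sodium-potassium-chloride cotransporter that brings in both ions the pump handles, read 12367 units in genistein denervated and 3063 units in genistein sham muscle, and 12547 and 3981 units in control denervated and sham muscle. Its log2 ratios were 2.01 and 1.66. Scn4b, a beta subunit of voltage-gated sodium channels, read 3844 and 20464 units in genistein denervated and sham muscle and 5415 and 19663 units on the control diet, with log2 ratios of -2.41 and -1.86. Kcnc4, a voltage-gated potassium channel, had ratios of 1.04 (0.96 under quantile normalization) and 1.48, on 1 of its 2 probe sets.

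Of 18 genes for kinases, ligases and membrane skeleton proteins that act on the pump or anchor it, 2 were at least 2-fold higher and 3 lower on genistein, and 2 higher and 4 lower on the control diet, beside 4.96% and 6.57% of all measured genes on genistein and 5.04% and 7.63% on the control diet. Under spike-in scaling 5 were higher and 3 lower on genistein, and 4 higher and 4 lower on the control diet. The medians were -0.09 and -0.10, or 0.48 and 0.27 under spike-in scaling. Sgk1, a kinase that raises pump activity in epithelia, had log2 ratios of 1.45 and 1.41 on the genistein and control diets, and Pik3r1, a regulatory subunit of phosphoinositide 3-kinase, 2.17 and 2.38. Lower on both diets were Ank3, or ankyrin-G, which links membrane proteins to spectrin (-1.90 and -1.86, with the second brightest probe set at -0.85 and -1.30), Cav3, the caveolin of muscle (-1.68 and -1.75), and Ank1 (-2.66 and -2.79). The probe sets of Ank1 that were above the floor disagreed, with a second at -0.31 on genistein. None of the genes of the transporter and kinase lists differed by 2-fold between diets in the values as reported. In denervated muscle 1 of each list did under spike-in scaling, and 1 of the kinase list with the second brightest probe set. In sham muscle 2 of the transporter list were past 2-fold lower with genistein when the floor was at the 20th percentile or absent. With no floor 1 of that list was past 2-fold lower in denervated muscle.

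**Figure D4:**
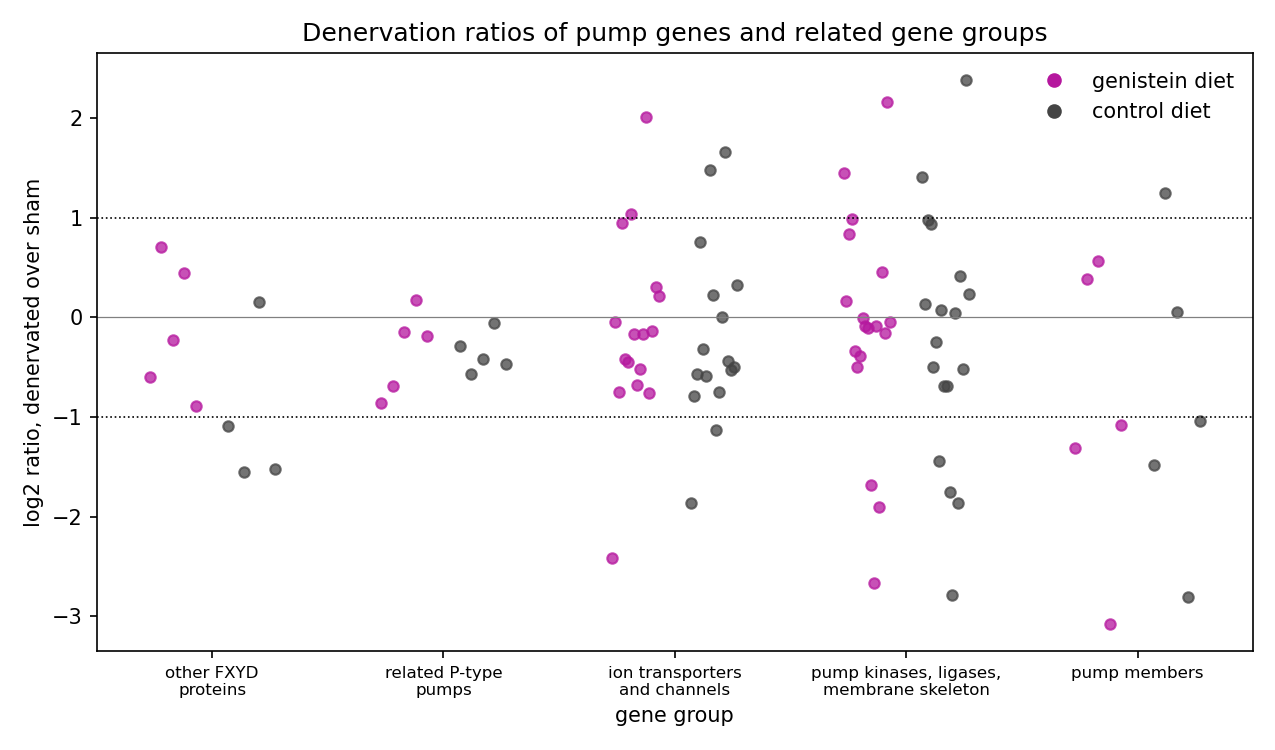
Log2 ratio of denervated over sham signal of each measured gene in 4 related gene groups and of the 5 pump genes, 1 point per gene, in magenta for the genistein diet and dark grey for the control diet, with dotted lines at 2-fold. Points spread to both sides of 0 on both diets among the transporters and channels, whose medians are -0.17 and -0.47, and Atp1b4 is the lowest point of all groups at -3.08 on genistein and -2.81 on the control diet.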

How the data were processed

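The authors deposited 1 signal intensity per probe set and array on a linear scale. Per the submitters' processing notes the software was GCOS 1.1, and per the labels' protocols RNA of 8 rats per group was pooled and labelled with biotin. With the top and bottom 2% of probe sets trimmed, every array had a mean intensity of 500.2, so no further scaling was applied. The scaling target, detection calls and genome build are not given in the sources used here.

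Of 31099 probe sets 57 controls were set aside. The platform annotation gave 20826 of the rest 1 gene symbol, 436 several and 9780 none listed, and 14217 genes resulted. A gene was represented by its brightest probe set (mean log2 signal), floored at the 40th percentile, and was measured in a comparison when at least 1 array was above the floor. The call was a fixed size of 2-fold, with no test, as each group has 1 array. The number of arrays limits the precision. The members and lists were chosen with earlier results of these data known. All members were named, and list genes past 2-fold in the same direction on both diets (at most 8 per list) or past 2-fold between diets. Other list genes named were chosen after their values were seen. Values were computed in Python 3.11.15 with pandas 2.3.3 and numpy 2.4.6, and the functions were tested on simulated data. Alternatives were 3 scalings, 3 floors and 2 choices of probe set.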

Additional observations from a re-analysis of the deposited data

Results flagged for a closer look

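For 3 genes the diet ratio had opposite signs in denervated and sham muscle, with 1 array per group, and the difference was not tested. Atp1b2 had a genistein over control log2 ratio of -0.19 in denervated and 0.68 in sham muscle, and the first became 0.01 under spike-in scaling. Atp1b3 had 0.29 in denervated and -0.22 in sham muscle, a sign pattern that held under the 3 scalings. The other alternatives could not alter it, as Atp1b3 has 1 probe set and its signals lie above every floor used. Atp1b4 had -0.0015 in denervated and 0.27 in sham muscle, where the first value is far smaller than the scatter of 0.25 among probe sets.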

How the results depend on the processing

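Under 8 alternatives the number of members at least 2-fold different by denervation was 2 to 3 on genistein (3 as reported) and 3 to 4 on the control diet (4 as reported), and it was 0 for both diet comparisons and for the difference between diets. The genes behind a count can change. Under spike-in scaling the genistein genes were Atp1b4 (-2.51) and Atp1b3 (1.13), with Atp1b1 at -0.75, and Fxyd1 was inside 2-fold there, under quantile normalization on both diets, and under median scaling on the control diet (-0.95). Relative to the median of all genes under spike-in scaling, Atp1b1 was at -1.31 and -1.47, Fxyd1 at -1.08 and -1.02 and Atp1b3 at 0.57 and 0.07. Of 200 recomputed member values, 181 moved by less than the SD among probe sets, 19 by more, and 0 of those past 2-fold changed sign. Many of these values could not move, so the 181 is no measure of stability. Atp1b3, Atp1b4 and Fxyd1 have 1 probe set each, so the choice of probe set changed nothing for them. All 5 genes were above the floor on all 4 arrays, so a floor at the 20th percentile or none changed nothing. The floor at the 60th percentile left Atp1b1, Atp1b3 and Fxyd1 unchanged. Among all genes past 2-fold, the share that was higher was 43.0% on genistein and 39.8% on the control diet, 90.9% and 76.6% under spike-in scaling. In denervated muscle the share higher on genistein was 89.2%, and 69.3% under median scaling, which moved the median of all genes there to -0.13. The denervated and sham pools of a diet hold legs of the same rats, so each ratio within a diet is already a paired difference. A fit over both diets, whose only residual is the difference between diets, was not run. Ratios of Atp1b4 are limited by denervated signals close to the floor. Those of Atp1b2 rest on low signals, of which the control sham signal lies below the floor at the 60th percentile (217.5 units).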

Other observations

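Related P-type pumps, which form the same kind of phosphorylated intermediate, did not pass 2-fold in any comparison among the 5 of 10 listed genes that were measured, each by its brightest probe set. Atp2a2 was past 2-fold lower with its second brightest probe set (-1.56 on each diet) and, on genistein, with the mean of its probe sets (-1.03), and a floor at the 20th percentile or none also let genes of the list past 2-fold. Atp2a2, the calcium pump of the slow sarcoplasmic reticulum, read 25055 and 40484 units in genistein denervated and sham muscle and 31052 and 45997 units in control denervated and sham muscle (log2 ratios -0.69 and -0.57), but its 5 probe sets disagreed, from -1.56 to -0.44 on genistein and from -1.61 to 0.37 on the control diet. Atp2b1, a calcium pump of the plasma membrane, read 3025 and 2681 units in genistein denervated and sham muscle and 2725 and 2841 units on the control diet (0.17 and -0.06). Atp4b, the beta subunit of the gastric proton pump and a relative of the beta subunits described above, and the proton pump genes Atp4a and Atp12a were below the floor in all 4 pools.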
